A study of Mus musculus with 7 samples.

Results

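The nuclear genes of the mitochondrial respiratory chain and of ATP synthase were followed in a mouse medulloblastoma cell line in which Ofd1 or Kif3a had been targeted by CRISPR. Members were the genes whose symbol starts with Nduf, Uqcr or Atp5, the 4 succinate dehydrogenase genes Sdha to Sdhd, and the genes named Cox followed by a digit from 4 to 8, with pseudogene symbols left out. This gave 92 of the 24047 genes in the count table. They were 36 genes of complex I, 4 of complex II, 8 of complex III, 20 of complex IV, 15 of complex V and 9 assembly factors or related proteins that the symbols also matched. Ndufa4 and its paralog Ndufa4l2 were placed with complex IV, since the Ndufa4 protein is a subunit of cytochrome c oxidase despite its symbol.

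Complex I takes electrons from NADH and complex II from succinate. Complex III passes them from ubiquinol to cytochrome c, and complex IV passes them on to oxygen. Complexes I, III and IV pump protons across the inner mitochondrial membrane, and complex V, the ATP synthase, uses the returning protons to make ATP. Most subunits are encoded in the nucleus and imported, while a core set in complexes I, III, IV and V is encoded by mitochondrial DNA; the latter genes were not analysed here. Cerebellar granule neuron progenitors, the cells from which Hedgehog-driven medulloblastoma arises, are known for strong aerobic glycolysis alongside respiration.

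All libraries came from SMB21, an established medulloblastoma line labelled as adult, with the strain background Ptch1tm1Mps/J and the genotype Ptch mutant, grown as neurospheres. Loss of Ptch1 leaves the Hedgehog pathway active. Each group carried the lentiCRISPR vector, with a guide to GFP in the control (2 libraries), to Ofd1, which encodes a centriole and basal body protein (3 libraries), or to Kif3a, which encodes a kinesin-2 motor subunit needed to build cilia (2 libraries). RNA was taken 2 weeks after infection, from 1 parental line, and whether clones or pools were sequenced is not given in the sources used here. For GFP, 3 replicates are counted in the series text and 2 of them were used here. Where a call is given with 1 library left out, the libraries are written GFP 1 and 2, Ofd1 1 to 3 and Kif3a 1 and 2.

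Library totals ran from 17961767 to 23022701 counts. Levels are given as CPM, a gene's counts relative to the TMM-scaled library total, and 3 counts, the limit that a count of 0 allows, stood for 0.130 to 0.167 CPM, counting error only. Kif3a fell in the Kif3a CRISPR libraries, from 104 and 104 CPM in GFP control to 73.9 and 60.5 (log2 fold change -0.63, SE 0.0929, adjusted p = 0.000854), whereas the level of Ofd1 was 22.5 and 23.1 CPM in GFP control, and 21.0, 20.02 and 21.99 in Ofd1 CRISPR (log2 fold change -0.12, adjusted p = 0.398). In the other mutant, Kif3a stood at 90.5, 93.1 and 97.4 CPM in Ofd1 CRISPR, and Ofd1 rose to 31.6 and 29.0 in Kif3a CRISPR (log2 fold change 0.41, adjusted p = 0.0126). All 8 granule neuron progenitor markers were measured, with a summed level of 2645 and 2679 CPM in GFP control and 2803 to 3258 in the mutants. Among them Atoh1 (0.53 in Ofd1 CRISPR and 0.57 in Kif3a CRISPR, log2), Pax6 (0.73 and 0.97) and Barhl1 (0.57 and 0.52) rose, and Gli1 (-0.84 and -0.82) and Mycn (-0.30 and -0.56) fell; their part in the members' values was not tested. The microglia and macrophage list of 13 genes summed to 24.6 CPM in GFP control replicate 1 and to 2.96 to 4.84 in the other libraries, with Cx3cr1 at 0 throughout, and its part in the results was not tested; calls lost without that library are named below.

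Respiratory chain promoters often hold binding sequences for NRF1 and for ETS factors such as GABP, also called nuclear respiratory factor 2. The core letters TGCGCA for NRF1 and CCGGAAG for ETS factors were searched on both strands of RefSeq promoter windows (build GRCm38.p6, 250 bases before to 50 after the start). There were 82 windows for 76 members, and no window for the other 16. TGCGCA stood in 20 of the 82 windows (24.4%), against 7.76% of all 32851 windows of that length, and CCGGAAG in 17 (20.7%), against 8.86%. Both motifs stood in 4 member windows (4.88%), against 1.28% of all windows. Complex I held 11 of the 20 windows with the NRF1 letters, over 34 windows, and complex V held 5 of the 17 windows with the ETS letters, over 17. Windows of 4 members are printed because these members were called against GFP control in each mutant and their window holds one of the motifs; the choice was made after their values were seen. Ndufv3, called likewise, has neither motif in its window. Capitals mark CCGGAAG or its reverse complement CTTCCGG in the 3 members that rose and TGCGCA in Ndufa6, which fell.
Atp5e (chr2:174464052-174464351, minus strand): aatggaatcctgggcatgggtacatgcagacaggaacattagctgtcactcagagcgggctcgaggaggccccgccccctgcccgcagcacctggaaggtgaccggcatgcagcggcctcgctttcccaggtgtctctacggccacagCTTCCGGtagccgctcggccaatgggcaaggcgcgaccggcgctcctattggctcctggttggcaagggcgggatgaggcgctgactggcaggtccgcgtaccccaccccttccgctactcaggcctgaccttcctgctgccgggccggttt
Atp5j (chr16:84834927-84835226, minus strand): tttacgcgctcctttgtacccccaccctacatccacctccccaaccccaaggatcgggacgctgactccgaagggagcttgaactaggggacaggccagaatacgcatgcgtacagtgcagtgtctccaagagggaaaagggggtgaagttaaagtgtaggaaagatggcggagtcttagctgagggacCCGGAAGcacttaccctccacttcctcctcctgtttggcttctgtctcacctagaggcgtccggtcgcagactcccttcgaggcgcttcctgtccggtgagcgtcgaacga
Uqcr11 (chr10:80406772-80407071, minus strand): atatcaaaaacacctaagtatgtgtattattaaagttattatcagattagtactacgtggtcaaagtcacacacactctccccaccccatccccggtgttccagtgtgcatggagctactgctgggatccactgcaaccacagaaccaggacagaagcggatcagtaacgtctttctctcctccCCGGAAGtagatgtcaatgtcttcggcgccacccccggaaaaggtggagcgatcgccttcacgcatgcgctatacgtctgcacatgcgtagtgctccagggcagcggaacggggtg
Ndufa6 (chr15:82354242-82354541, minus strand): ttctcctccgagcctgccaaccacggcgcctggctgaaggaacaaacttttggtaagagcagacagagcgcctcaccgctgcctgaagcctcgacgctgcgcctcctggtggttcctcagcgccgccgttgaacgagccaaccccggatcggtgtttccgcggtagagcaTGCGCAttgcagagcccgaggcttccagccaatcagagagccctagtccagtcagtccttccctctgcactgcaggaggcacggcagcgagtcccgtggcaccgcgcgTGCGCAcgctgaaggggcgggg

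The Atp5e, Atp5j and Uqcr11 windows each held the ETS letters once and the NRF1 letters nowhere. Atp5j has another window at an upstream start, with neither motif. In the Ndufa6 window TGCGCA occurred 2 times and CCGGAAG did not occur. Over the members higher in Kif3a CRISPR, 4 of 10 windows held the ETS letters and 1 the NRF1 letters, and over those lower, 0 of 5 and 2 of 5. For Ofd1 CRISPR these were 3 of 4 and 0 of 4 for the members higher, and 0 of 3 and 1 of 3 for those lower. The HIF core letters ACGTG were searched too, and stood in 22 of the 82 windows (26.8%), against 19.6% of all windows. They stood in 1 of 10 windows of members higher and 3 of 5 of those lower in Kif3a CRISPR. For Ofd1 CRISPR these were 1 of 4 and 1 of 3. Among the called members, Ndufa4l2, Cox6a2, Uqcrq and Cox6c have no window, so none of the letters were searched there. In Kif3a CRISPR the 10 windows of members higher came from 9 genes and the 5 of those lower from 4. The 4 windows of members higher in Ofd1 CRISPR came from 3 genes. The Ndufv3 and Uqcr11 windows each held ACGTG 1 time. Such matches describe the letters in a window; no binding was measured.

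Most respiratory chain genes did not pass the test in either mutant, and those that did included rises and falls. Against GFP control, 3 members rose and 6 fell in Ofd1 CRISPR (10.2% of the 88 members tested), beside 14.9% of all 12875 genes tested (6.79% higher and 8.09% lower). In Kif3a CRISPR 10 rose and 6 fell (18.2%), beside 20.1% of all genes (9.19% higher and 10.9% lower). A call is an adjusted p under 0.05 in edgeR's quasi-likelihood test, with Benjamini-Hochberg adjustment over all tested genes, and the change is on the log2 scale. The first share was below the background and the second near it. The 6 falls in each comparison include Cox6a2, which passed the filter on low counts only through the GFP control libraries, where it is high. The median absolute change of the members was 0.11 in Ofd1 CRISPR and 0.14 in Kif3a CRISPR, beside 0.15 and 0.18 over all tested genes. Over the 9718 tested genes averaging 10 CPM or more it was 0.126 and 0.146, closer to the members' values. Of these better expressed genes, 16.2% were called in Ofd1 CRISPR and 21.4% in Kif3a CRISPR. The median signed change of the members was 0.02 and 0.04, beside 0.00 and 0.01 over all tested genes. With library totals alone as the scaling, the Ofd1 CRISPR split became 5 higher and 5 lower. The 2 comparisons share the GFP control libraries, so their values are set side by side and their likeness is not used.

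**Figure D1:**
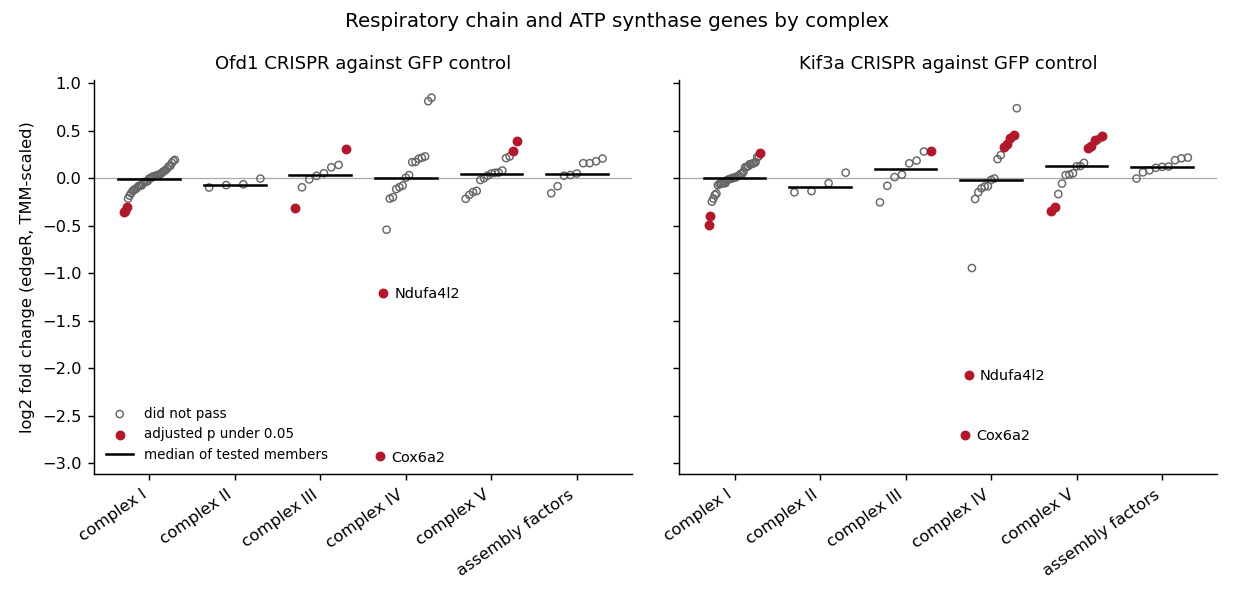
The y axis is the log2 fold change against GFP control and each point is a tested member, sorted by value within its complex; filled points passed an adjusted p of 0.05 and bars are medians. Most points lie near 0 on both sides, and the 2 lowest filled points in each panel are the complex IV isoforms Cox6a2 and Ndufa4l2.

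The 4 members that could not be tested were Ndufs5, Cox7b2 and Cox8c, listed at 0 in all 7 libraries, and Cox4i2, with 1 count in Kif3a CRISPR replicate 2. Ndufs5 is a general subunit of complex I, unlike the other 3, which are tissue-restricted isoforms; 27.8% of its 75-base windows also occur in another gene, and whether its 0 comes from the counting was not tested. Together the members took 1.103% to 1.16% of the scaled total in GFP control, 1.08% to 1.14% in Ofd1 CRISPR and 1.09% to 1.19% in Kif3a CRISPR, so their share did not separate the groups. The libraries of the groups did not overlap for 47.7% of the tested members in Ofd1 CRISPR and 55.7% in Kif3a CRISPR, beside 49.5% and 66.4% of all tested genes. The counts depended on single libraries. Each count of members lower in Ofd1 CRISPR given next includes Cox6a2, which passed the filter only through GFP control. In Ofd1 CRISPR they were 1 higher and 2 lower without GFP 1, 0 and 1 without GFP 2, 3 and 3 without Ofd1 1, and 2 and 2 without Ofd1 2. In Kif3a CRISPR they were 5 and 1 without GFP 1, 1 and 4 without GFP 2, 9 and 1 without Kif3a 1, and 2 and 8 without Kif3a 2. The counts over all genes also moved when single libraries were left out, down in some fits and up in others.

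By complex, the median change in Ofd1 CRISPR was -0.01 in complex I (0.03 with library totals alone), -0.07 in complex II, 0.04 in complex III, 0.00 in complex IV (-0.00 with RLE size factors), 0.05 in complex V and 0.05 in the assembly factors. In Kif3a CRISPR it was 0.01, -0.10, 0.10, -0.02 (0.01 with library totals alone), 0.12 and 0.12 in the same order. Complex IV and complex V had the highest shares of members called in Kif3a CRISPR, 35.3% and 40.0%, beside 20.1% of all genes. Complex I had 8.57%. In Ofd1 CRISPR the shares of complexes IV, V and I were 11.8%, 13.3% and 8.57%, beside 14.9% of all genes. The complex IV shares count Cox6a2, which passed the filter only through GFP control. They also count Ndufa4 and Ndufa4l2, which were placed there and not with complex I. No difference between complexes was tested. Within single libraries, the median log2 ratio of complex V to the GFP control mean was -0.03 and 0.03 in GFP control, -0.00, 0.03 and 0.06 in Ofd1 CRISPR and 0.07 and 0.14 in Kif3a CRISPR. The Kif3a CRISPR libraries lay above the GFP control libraries there, and the Ofd1 CRISPR libraries overlapped them. Both Kif3a CRISPR libraries also lay outside the GFP control range in complex II (-0.10 and -0.06, against -0.02 and 0.02), in complex III (0.06 and 0.12, against -0.05 and 0.05) and in the assembly factors (0.16 and 0.10, against -0.07 and 0.07). For complex IV the same ratio was -0.13 and 0.02 in the Kif3a CRISPR libraries, against -0.03 and 0.03 in GFP control, so 1 Kif3a CRISPR library lay below the GFP control range and 1 within it. In complex I the Kif3a CRISPR libraries stood at -0.07 and 0.09, against -0.04 and 0.04, so 1 lay below the GFP control range and 1 above it. Among single genes, 66.4% of all tested genes did not overlap between Kif3a CRISPR and GFP control. Whether the medians separate more often than that was not tested.

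**Figure D2:**
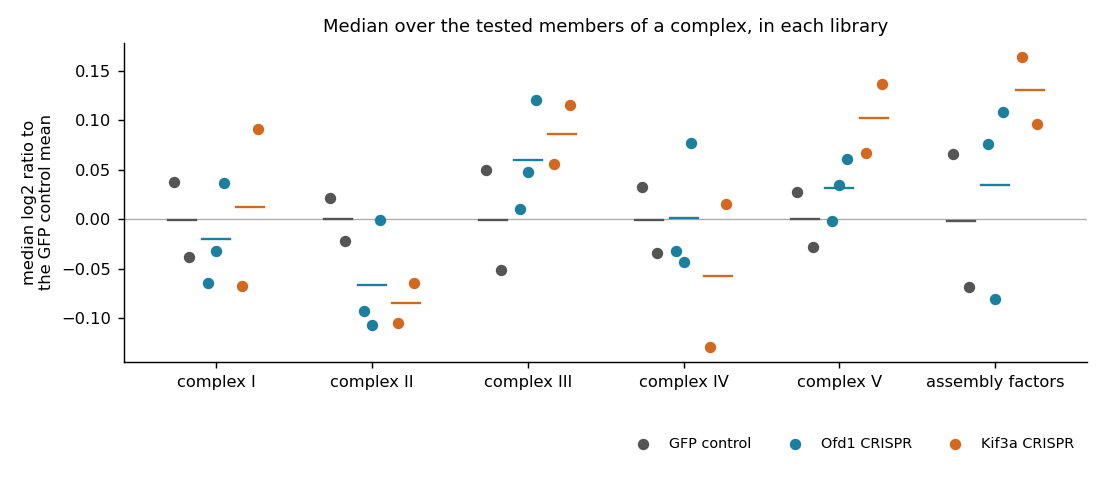
The y axis is the median, over the tested members of a complex, of the log2 ratio of CPM plus 0.5 to the GFP control mean; each point is a library and each bar a group mean. For complex V, as for II, III and the assembly factors, both Kif3a CRISPR libraries lie outside the GFP control range on the same side. For complex I they also lie outside it, 1 below and 1 above (-0.07 and 0.09, against -0.04 and 0.04). For complex V the Kif3a CRISPR libraries, at 0.07 and 0.14, lie above both GFP control libraries. Of all tested genes, 66.4% also did not overlap between Kif3a CRISPR and GFP control.

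Per kilobase of transcript, which allows genes to be compared, the level in GFP control differed widely among members. The median was 86.7 CPM per kilobase in complex I, 85.6 in complex II, 113 in complex III, 108 in complex IV, 224 in complex V and 13.4 in the assembly factors. The highest member of complex V was Atp5o, the oligomycin sensitivity subunit of the peripheral stalk, at 694 ± 6.59 CPM per kilobase (SD, n = 2), and Atp5b, the catalytic beta subunit, stood beside it at 689 ± 6.68, a difference within the spread between libraries. In complex IV Ndufa4 was highest (619 ± 53.1), in complex III Uqcrq (383 ± 26.2), in complex I Ndufa7 (349 ± 8.25), in complex II Sdhd (101 ± 0.653) and among the assembly factors Ndufaf5 (19.7 ± 0.0658). The lowest tested members were Cox7a1, Cox6a2, Cox8b and Cox6b2, isoforms of heart and skeletal muscle or of testis, at 0.818 to 2.20 CPM per kilobase. Some levels are uncertain, because reads that fit several genes may have been left out or divided. In GENCODE M21 transcripts, 14 members share at least 25% of their 75-base windows with another gene, among them Atp5g2 (100%), Atp5o (83.8%), Atp5l (76.0%), Cox7c (50.4%) and Atp5g1 (50.4%). Atp5l, a membrane subunit, had only 24 to 34 counts per library.

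**Figure D3:**
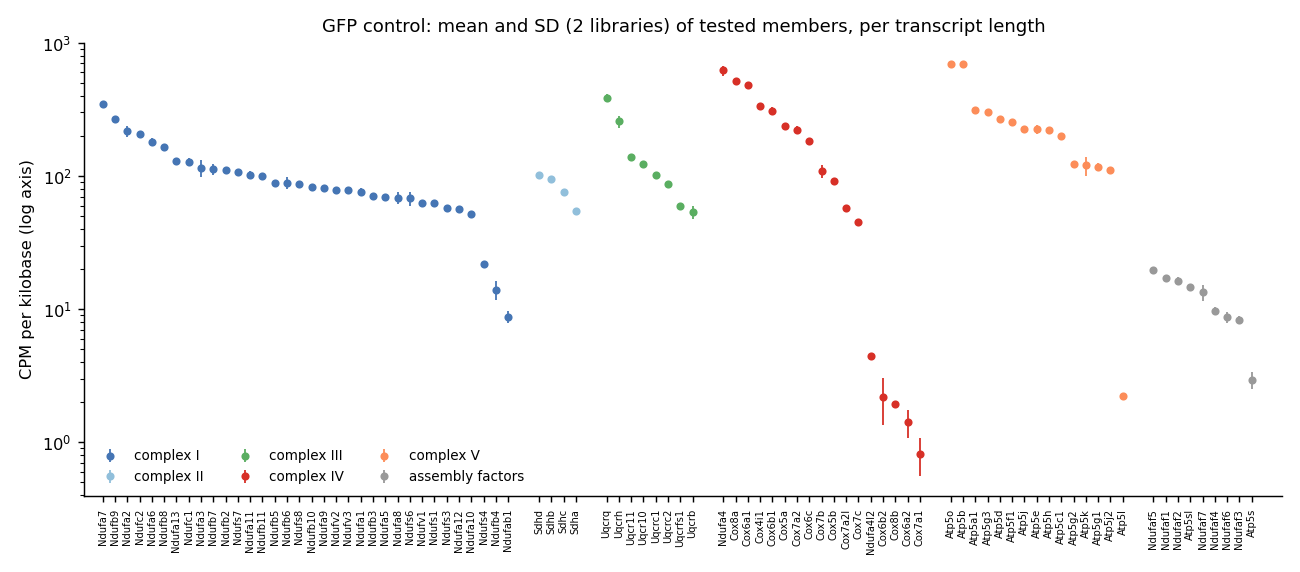
The y axis is CPM per kilobase of transcript in GFP control on a log scale; points are means and bars the SD of 2 libraries, for tested members other than 1 of complex I, ordered within each complex. Complex V lies highest (median 224) and the assembly factors lowest (13.4), apart from single members such as the muscle isoforms of complex IV and Atp5l.

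In complex I 8.57% of the tested genes were called in each comparison with GFP control, beside 14.9% (Ofd1 CRISPR) and 20.1% (Kif3a CRISPR) of all tested genes. None of its 35 tested genes rose and 3 fell in Ofd1 CRISPR, and 1 rose and 2 fell in Kif3a CRISPR. The 7 core subunits that are in the table, which carry the flavin and iron-sulphur clusters, gave 1 call. This was Ndufv2, an iron-sulphur subunit of the NADH-oxidising module. It stood at 138 and 131 CPM in the GFP control libraries, 147, 150.1 and 152 in Ofd1 CRISPR and 156 and 167 in Kif3a CRISPR. All Kif3a CRISPR libraries lay above both GFP control libraries, and the change was 0.26 (SE 0.0706, adjusted p = 0.0215), against 0.16 (adjusted p = 0.117) in Ofd1 CRISPR. None of the other core genes passed the test.

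The falls lay in accessory subunits, which surround the core. Ndufv3, a small accessory subunit beside the NADH-oxidising site, was at 127 and 119 CPM in the GFP control libraries, 94.6, 94.2 and 100.2 in Ofd1 CRISPR and 78.3 and 97.9 in Kif3a CRISPR. Neither mutant group overlapped GFP control. Its change was -0.36 (SE 0.0889, adjusted p = 0.0203) in Ofd1 CRISPR and -0.49 (SE 0.0983, adjusted p = 0.00516) in Kif3a CRISPR. Ndufa6, an accessory subunit of the peripheral arm, was at 112 and 101 CPM in the GFP control libraries, 83.0, 84.2 and 90.5 in Ofd1 CRISPR and 74.4 and 87.6 in Kif3a CRISPR. It was lower in all 5 mutant libraries than in both GFP control libraries, with changes of -0.31 (SE 0.0848, adjusted p = 0.0312) and -0.39 (SE 0.0935, adjusted p = 0.0124). Ndufc2, an accessory subunit of the membrane arm, stood at 144 and 136 CPM in the GFP control libraries, 99.0, 113 and 119 in Ofd1 CRISPR and 108 and 128 in Kif3a CRISPR. It fell in Ofd1 CRISPR, by 0.35 (SE 0.0925, adjusted p = 0.0279), while in Kif3a CRISPR the value was -0.25 (adjusted p = 0.108). Ndufa7, the most abundant member of complex I per length, was at 187 and 181 CPM in the GFP control libraries, 153, 156 and 167 in Ofd1 CRISPR and 143 and 175 in Kif3a CRISPR, and its values of -0.22 (adjusted p = 0.110) and -0.22 (adjusted p = 0.128) did not pass. The other accessory genes had changes between -0.18 and 0.23.

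These calls rested on few libraries. Ndufv3 was lost in Ofd1 CRISPR without GFP 1, GFP 2 or Ofd1 2 (adjusted p = 0.175, 0.0690 and 0.0663, in that order), and in Kif3a CRISPR without GFP 1 or Kif3a 1 (adjusted p = 0.0530 and 0.0736, in that order). For Ndufa6 the Ofd1 CRISPR call was lost without GFP 1, GFP 2, Ofd1 1 or Ofd1 2 (adjusted p = 0.289, 0.0652, 0.0707 and 0.0908, in that order), and the Kif3a CRISPR call without GFP 1 or Kif3a 1 (adjusted p = 0.136 and 0.161, in that order). The Ndufc2 call was lost without GFP 1, GFP 2, Ofd1 1 or Ofd1 2 (adjusted p = 0.193, 0.0957, 0.0677 and 0.0626, in that order). Ndufv2 was lost without GFP 1, GFP 2, Kif3a 1 or Kif3a 2 (adjusted p = 0.0915, 0.184, 0.0588 and 0.114, in that order).

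Complex II, which also works as succinate dehydrogenase of the tricarboxylic acid cycle, had no call in either mutant. No member reached an unadjusted p under 0.05, and DESeq2 and the other alternatives also called 0 of the 4. Sdha, the flavoprotein, stood at 160.3 and 157 CPM in the GFP control libraries, 147, 148 and 149.6 in Ofd1 CRISPR and 147 and 142 in Kif3a CRISPR, with changes of -0.10 (adjusted p = 0.293) and -0.14 (adjusted p = 0.171). All 5 mutant libraries lay below both GFP control libraries, and neither change passed the test. Sdhb, the iron-sulphur subunit, was at 113 and 105 CPM in the GFP control libraries, 107, 110.1 and 109.8 in Ofd1 CRISPR and 112 and 116 in Kif3a CRISPR, and all 3 groups overlapped apart from Ofd1 CRISPR lying below Kif3a CRISPR. Its changes were -0.01 and 0.06. Sdhc and Sdhd anchor the complex in the membrane. Sdhc was at 244 and 234 CPM in the GFP control libraries, 228, 221 and 238 in Ofd1 CRISPR and 211 and 221 in Kif3a CRISPR, with -0.06 (adjusted p = 0.539) and -0.15 (adjusted p = 0.165). Sdhd was at 124 and 125 CPM in the GFP control libraries, 114, 114 and 127 in Ofd1 CRISPR and 117 and 124 in Kif3a CRISPR, with -0.07 (adjusted p = 0.521) and -0.05 (adjusted p = 0.665). For Sdhc and Sdhd both Kif3a CRISPR libraries lay below both GFP control libraries, while Ofd1 CRISPR overlapped GFP control. The SE of these log2 changes ran from 0.0604 to 0.0777, which sets what could be detected.

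In complex III the core proteins and the Rieske protein did not pass, and calls were confined to small accessory subunits. Uqcr11, one of these, rose in both mutants. It stood at 64.0 and 59.2 CPM in the GFP control libraries, 80.8, 74.0 and 74.1 in Ofd1 CRISPR and 72.2 and 77.9 in Kif3a CRISPR, and all 5 mutant libraries lay above both GFP control libraries. The change was 0.31 (SE 0.0763, adjusted p = 0.0193) in Ofd1 CRISPR and 0.28 (SE 0.0829, adjusted p = 0.0324) in Kif3a CRISPR. Uqcrq, an accessory subunit that contacts cytochrome b and the most abundant of the complex per length, was at 163 and 148 CPM in the GFP control libraries, 122, 129 and 124 in Ofd1 CRISPR and 113 and 147 in Kif3a CRISPR. It fell in Ofd1 CRISPR, by 0.31 (SE 0.0965, adjusted p = 0.0490), close to the threshold, and gave -0.25 (adjusted p = 0.113) in Kif3a CRISPR, where the replicates lay further apart. Uqcr10 was at 55.4 and 51.9 CPM in the GFP control libraries, 57.8, 60.0 and 59.5 in Ofd1 CRISPR and 59.3 and 71.3 in Kif3a CRISPR, with 0.14 (adjusted p = 0.298) and 0.28 (adjusted p = 0.0531), and the latter passed in 5 of the 13 alternatives. The catalytic Uqcrfs1, the Rieske iron-sulphur protein, stood at 83.2 and 79.2 CPM in the GFP control libraries, 71.7, 78.8 and 77.4 in Ofd1 CRISPR and 72.5 and 81.2 in Kif3a CRISPR and gave -0.10 (adjusted p = 0.423) and -0.08 (adjusted p = 0.532). Uqcrc1 and Uqcrc2, the core proteins, had values between -0.01 and 0.04. Uqcrb and Uqcrh, further small subunits, lay between 0.05 and 0.19 with no call. The Uqcr11 call was lost in Ofd1 CRISPR without GFP 1 or GFP 2 (adjusted p = 0.0781 and 0.208, in that order), and in Kif3a CRISPR without GFP 1, GFP 2, Kif3a 1 or Kif3a 2 (adjusted p = 0.0931, 0.237, 0.0796 and 0.159, in that order). Uqcrq was lost without GFP 1, GFP 2, Ofd1 1, Ofd1 2 or Ofd1 3 (adjusted p = 0.316, 0.101, 0.0954, 0.0905 and 0.0695, in that order), and with library totals alone (adjusted p = 0.0695).

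In complex IV 2 genes fell in Ofd1 CRISPR (11.8%, beside 14.9% of all tested genes). In Kif3a CRISPR 4 rose and 2 fell (35.3%, beside 20.1%). In each comparison the falls were the low-level isoforms Ndufa4l2 and Cox6a2. Both shares thus count Cox6a2, which passed the filter only through GFP control. Ndufa4l2, the paralog of Ndufa4 known to be induced in low oxygen by HIF-1, fell in both mutants. It stood at 4.03 and 4.31 CPM in the GFP control libraries, 1.43, 1.56 and 2.42 in Ofd1 CRISPR and 0.820 and 1.19 in Kif3a CRISPR, from 82 and 86 counts in GFP control, 29, 28 and 47 in Ofd1 CRISPR and 19 and 22 in Kif3a CRISPR. Neither mutant group overlapped GFP control, and Ofd1 CRISPR lay above Kif3a CRISPR. The group levels were 4.17 ± 0.199 CPM in GFP control (SD, n = 2), 1.80 ± 0.536 in Ofd1 CRISPR (SD, n = 3) and 1.00 ± 0.258 in Kif3a CRISPR (SD, n = 2). The change was -1.21 (SE 0.249, adjusted p = 0.00829) and -2.07 (SE 0.303, adjusted p = 0.000798). As a ratio of summed counts over the TMM-scaled library totals, Ndufa4l2 was 2.31-fold lower in Ofd1 CRISPR (95% exact interval 1.80 to 2.98, counting error only). In Kif3a CRISPR it was 4.24-fold lower (3.00 to 6.12). The Kif3a CRISPR call held in all 13 alternatives, with adjusted p up to 0.0416, and the Ofd1 CRISPR call was lost in 1, without GFP 2 (adjusted p = 0.0593). Of the 6 endothelial markers, Cldn5 was at 0 in all libraries. The summed level was 2.15 to 3.09 CPM in GFP control, 1.18 to 1.61 in Ofd1 CRISPR and 0.518 to 0.754 in Kif3a CRISPR, the same order as Ndufa4l2. Only Cdh5 was tested (1.38 and 1.75 CPM in GFP control, 0.690, 1.17 and 0.514 in Ofd1 CRISPR, 0.389 and 0.539 in Kif3a CRISPR). Flt1 stood at 1.18 CPM in GFP control replicate 1 and at most 0.197 elsewhere. Pecam1 was highest in Ofd1 CRISPR replicate 3 (0.668 CPM), and Kdr and Tek were at most 0.154. The single markers thus did not all share the order of the sum. The part of such cells in the Ndufa4l2 values was not tested. In these bulk libraries, fewer cells of a type and less RNA per cell cannot be told apart.

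Ndufa4 itself, the far more abundant subunit, lay in the opposite direction. It stood at 297 and 263 CPM in the GFP control libraries, 327, 331 and 327 in Ofd1 CRISPR and 359 and 389.9 in Kif3a CRISPR, with every mutant library above both GFP control libraries. It rose in Kif3a CRISPR by 0.42 (SE 0.0792, adjusted p = 0.00352), and gave 0.23 (adjusted p = 0.0545) in Ofd1 CRISPR, where it passed in 4 of the 13 alternatives. Per kilobase, Ndufa4l2 made up 0.652% and 0.787% of the summed level of the pair in GFP control, 0.211% to 0.357% in Ofd1 CRISPR and 0.110% to 0.147% in Kif3a CRISPR. The Ndufa4 call in Kif3a CRISPR was lost without GFP 2 (adjusted p = 0.0598).

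Cox6a2, the heart and skeletal muscle isoform of subunit VIa, was also lower in both mutants, at levels near the limit of detection. It had 23 and 16 counts in GFP control, 1, 3 and 3 in Ofd1 CRISPR and 4 and 2 in Kif3a CRISPR, or 1.13 and 0.801 CPM in the GFP control libraries, 0.0493, 0.167 and 0.154 in Ofd1 CRISPR and 0.173 and 0.108 in Kif3a CRISPR. Neither mutant group overlapped GFP control, but a gene that passes the filter only through GFP control had to differ from it, so its call supports nothing and the values are a description. The ratio of summed counts was 7.98-fold lower in Ofd1 CRISPR (95% exact interval 3.53 to 21.1) and 6.72-fold lower in Kif3a CRISPR (2.83 to 19.4), with fitted changes of -2.93 (SE 0.515, adjusted p = 0.00344) and -2.70 (SE 0.554, adjusted p = 0.00579) that depend on the prior count at this level. DESeq2 gave no adjusted p, and the Kif3a CRISPR call was lost without GFP 1, Kif3a 1 or Kif3a 2 (adjusted p = 0.0588, 0.101 and 0.0887, in that order). The 5 muscle markers summed to 0.196 to 0.779 CPM in all libraries, lowest in GFP control replicate 1, so defining muscle genes were near 0 in every group. Cox6a1, the widely expressed counterpart, stood at 283 and 271 CPM in the GFP control libraries, 253, 265 and 269.6 in Ofd1 CRISPR and 238 and 277 in Kif3a CRISPR and gave -0.08 (adjusted p = 0.520) and -0.11 (adjusted p = 0.391). Cox6a2 was 0.248% and 0.334% of the Cox6a level per kilobase in GFP control and at most 0.0609% in the mutant libraries.

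**Figure D4:**
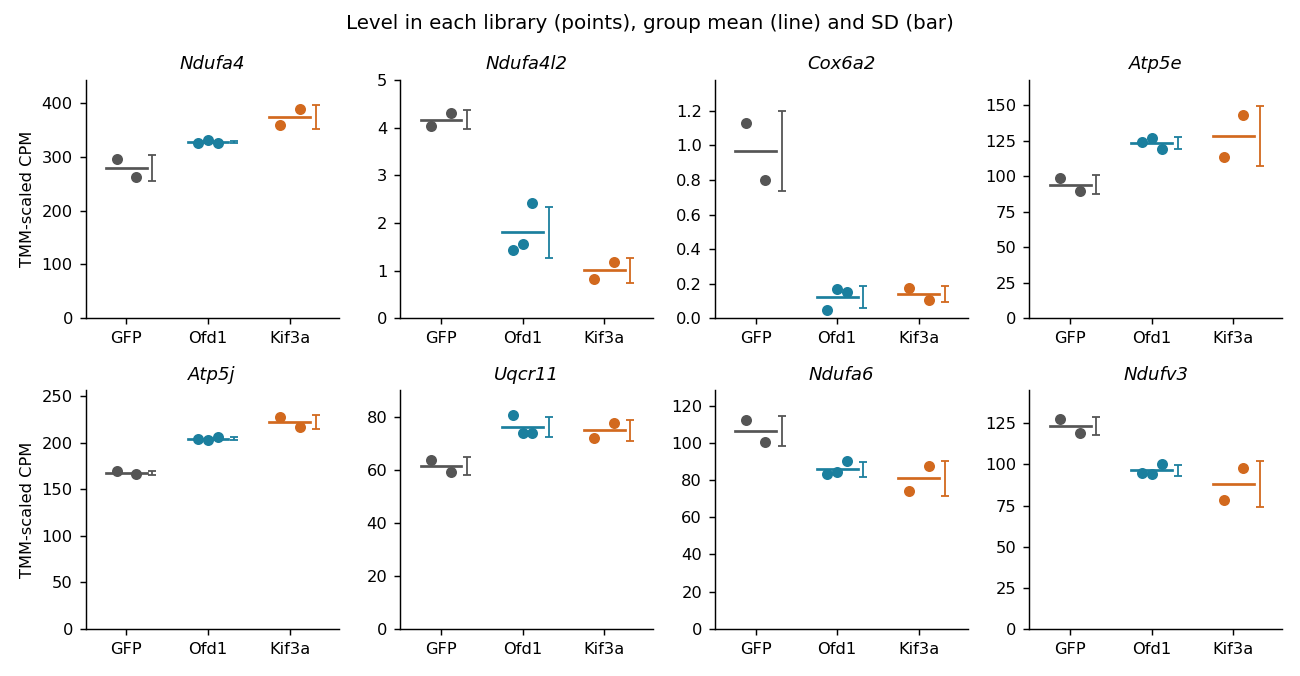
Each panel shows 1 member, with TMM-scaled CPM on a linear y axis from 0; points are libraries, the line is the group mean and the bar the SD (n = 2, 3 and 2). Ndufa4l2 falls from 4.03 and 4.31 to between 0.820 and 2.42 CPM, while Atp5j rises from 169 and 166 to between 202 and 227.

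The other tissue-restricted isoforms of complex IV did not pass. Cox6b2, the testis isoform of VIb, stood at 0.884 and 1.55 CPM in the GFP control libraries, 0.837, 1.06 and 0.617 in Ofd1 CRISPR and 0.475 and 0.808 in Kif3a CRISPR, with -0.54 (adjusted p = 0.357) and -0.95 (adjusted p = 0.146). Among the 5 testis markers Ldhc and Pgk2 were at 0, and the summed level, nearly all from Prm1, was 25.98 and 26.9 CPM in GFP control and 10.6 to 17.6 in the mutants; its part in the Cox6b2 values was not tested. Cox8b, a muscle isoform of subunit VIII, was at 0.688 and 0.701 CPM in the GFP control libraries, 2.02, 0.723 and 0.976 in Ofd1 CRISPR and 0.9499 and 1.401 in Kif3a CRISPR, with 0.85 (adjusted p = 0.229) and 0.74 (adjusted p = 0.317), and Ofd1 CRISPR replicate 1 stood highest. Cox7a1, a muscle isoform of VIIa, was at 0.393 and 0.2505 CPM in the GFP control libraries, 0.739, 0.389 and 0.565 in Ofd1 CRISPR and 0.432 and 0.323 in Kif3a CRISPR and gave 0.81 (adjusted p = 0.277) and 0.24 (adjusted p = 0.790). Cox7a1 passed the filter on low counts only through Ofd1 CRISPR, where it is high, so its values are a description. It was fitted in 10 and 9 of the 13 alternatives. The widely expressed Cox8a stood at 286 and 284 CPM in the GFP control libraries, 245, 241 and 250.4 in Ofd1 CRISPR and 231 and 259 in Kif3a CRISPR, below GFP control in all 5 mutant libraries, with -0.22 (adjusted p = 0.0526) and -0.22 (adjusted p = 0.0573), just short of the threshold and past it in 7 and 6 of the 13 alternatives. Cox4i1, the major isoform of subunit IV, was at 254 and 244 CPM in the GFP control libraries, 286, 274 and 279 in Ofd1 CRISPR and 266 and 307 in Kif3a CRISPR, with 0.17 (adjusted p = 0.146) and 0.20 (adjusted p = 0.101), while Cox4i2, its counterpart in lung and low oxygen, had 1 count over all libraries. Cox6b1, Cox7a2 and Cox7a2l, which joins complexes III and IV in supercomplexes, had values between -0.12 and 0.03. Cox5a gave -0.20 and -0.15 and Cox7c 0.00 and -0.00, with no call.

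In Kif3a CRISPR 3 small structural subunits of complex IV rose besides Ndufa4. Cox7b was at 117 and 99.7 CPM in the GFP control libraries, 116, 128 and 133 in Ofd1 CRISPR and 134 and 164 in Kif3a CRISPR and changed by 0.46 (SE 0.108, adjusted p = 0.0124). Cox5b, which binds zinc, was at 81.0 and 76.4 CPM in the GFP control libraries, 91.9, 94.3 and 85.8 in Ofd1 CRISPR and 94.6 and 107 in Kif3a CRISPR and changed by 0.36 (SE 0.0846, adjusted p = 0.0126). Cox6c was at 113 and 108 CPM in the GFP control libraries, 121, 128 and 124 in Ofd1 CRISPR and 134 and 143 in Kif3a CRISPR and changed by 0.32 (SE 0.0724, adjusted p = 0.00909). For each of the 3 both Kif3a CRISPR libraries were above every GFP control and Ofd1 CRISPR library. In Ofd1 CRISPR the values were 0.21 (adjusted p = 0.169), 0.20 (adjusted p = 0.0994) and 0.17 (adjusted p = 0.106). Calls were lost for Cox7b without GFP 2 or Kif3a 2 (adjusted p = 0.119 and 0.121, in that order), for Cox5b without GFP 1, GFP 2 or Kif3a 2 (adjusted p = 0.0561, 0.110 and 0.0970, in that order) and for Cox6c without GFP 1, GFP 2 or Kif3a 2 (adjusted p = 0.0543, 0.0992 and 0.0636, in that order).

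In ATP synthase, 2 of 15 genes rose and none fell in Ofd1 CRISPR (Atp5e and Atp5j), or 13.3%, beside 14.9% of all tested genes. In Kif3a CRISPR 4 rose (Atp5e, Atp5j, Atp5j2 and Atp5k) and 2 fell (Atp5d and Atp5g2), or 40.0%, beside 20.1%. The catalytic head had no call. Atp5a1 and Atp5b, the alpha and beta subunits of the head, had the most counts of all members. Atp5b stood at 1329 and 1311 CPM in the GFP control libraries, 1107, 1185 and 1214 in Ofd1 CRISPR and 1129 and 1222 in Kif3a CRISPR, with -0.18 (adjusted p = 0.113) and -0.17 (adjusted p = 0.148). Atp5a1 stood at 785 and 751 CPM in the GFP control libraries, 766, 780.1 and 801 in Ofd1 CRISPR and 783 and 793 in Kif3a CRISPR, with 0.03 and 0.04. Atp5e, the epsilon subunit of the central stalk, rose in both mutants. It was at 98.9 and 89.5 CPM in the GFP control libraries, 124, 127 and 119 in Ofd1 CRISPR and 114 and 143 in Kif3a CRISPR, and all 5 mutant libraries exceeded both GFP control libraries. The change was 0.39 (SE 0.0947, adjusted p = 0.0181) and 0.45 (SE 0.103, adjusted p = 0.0105). Atp5d, the delta subunit of the same stalk, lay in the opposite direction, at 255 and 239.6 CPM in the GFP control libraries, 227, 229 and 219.8 in Ofd1 CRISPR and 184 and 218 in Kif3a CRISPR, and fell in Kif3a CRISPR by 0.30 (SE 0.0853, adjusted p = 0.0287), with -0.13 (adjusted p = 0.267) in Ofd1 CRISPR. Atp5c1, the gamma subunit, stood at 237 and 229.7 CPM in the GFP control libraries, 196, 209 and 228 in Ofd1 CRISPR and 219 and 230.1 in Kif3a CRISPR and did not pass, with -0.15 (adjusted p = 0.199) and -0.06 (adjusted p = 0.656). The central stalk thus held 1 member that rose, 1 that fell and 1 without a call in Kif3a CRISPR.

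Atp5j, coupling factor 6 of the peripheral stalk, rose in both mutants. It stood at 169 and 166 CPM in the GFP control libraries, 204, 202 and 206 in Ofd1 CRISPR and 227 and 216 in Kif3a CRISPR, or 167 ± 2.31 CPM in GFP control (SD, n = 2), 204 ± 1.71 in Ofd1 CRISPR (SD, n = 3) and 222 ± 7.63 in Kif3a CRISPR (SD, n = 2), and no groups overlapped. It rose by 0.28 (SE 0.0621, adjusted p = 0.0108) in Ofd1 CRISPR and by 0.41 (SE 0.0675, adjusted p = 0.00173) in Kif3a CRISPR, and the Kif3a CRISPR call held in all 13 alternatives (adjusted p up to 0.0300). The other peripheral stalk genes, Atp5f1, Atp5h and Atp5o, had values between -0.00 and 0.13 with no call. Of the small membrane subunits, Atp5j2 (subunit f) was at 107 and 104 CPM in the GFP control libraries, 121, 125 and 121 in Ofd1 CRISPR and 124 and 140.1 in Kif3a CRISPR and rose in Kif3a CRISPR by 0.32 (SE 0.0766, adjusted p = 0.0127), with 0.21 (adjusted p = 0.0645) in Ofd1 CRISPR. Atp5k (subunit e) was at 49.6 and 39.4 CPM in the GFP control libraries, 53.6, 51.6 and 51.1 in Ofd1 CRISPR and 56.0 and 56.6 in Kif3a CRISPR and rose by 0.34 (SE 0.100, adjusted p = 0.0337), with 0.23 (adjusted p = 0.120) in Ofd1 CRISPR. Atp5l (subunit g), with few counts, gave 0.08 (adjusted p = 0.903) and 0.41 (adjusted p = 0.457).

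Atp5g1, Atp5g2 and Atp5g3 encode the same mature c subunit of the membrane ring. Per kilobase in GFP control Atp5g3 gave 55.6% and 56.3% of the summed level, Atp5g1 21.0% and 21.99% and Atp5g2 21.7% and 23.4%. Atp5g2 fell in Kif3a CRISPR. It was at 53.2 and 54.7 CPM in the GFP control libraries, 43.1, 47.2 and 49.0 in Ofd1 CRISPR and 38.8 and 46.0 in Kif3a CRISPR, a change of -0.35 (SE 0.0973, adjusted p = 0.0260), with -0.22 (adjusted p = 0.118) in Ofd1 CRISPR. Its share was 19.1% to 20.1% in Ofd1 CRISPR and 17.0% to 17.5% in Kif3a CRISPR, and that of Atp5g3 was 60.9% to 61.5% in Kif3a CRISPR. Atp5g3 gave 0.05 (adjusted p = 0.702) and 0.16 (adjusted p = 0.188), and Atp5g1 -0.02 and 0.03. All 75-base windows of the Atp5g2 transcript also occur in other genes, so its counts depend on how shared reads were treated, which is not given in the sources used here.

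Single libraries decided most calls in ATP synthase. Atp5e was lost in Ofd1 CRISPR without GFP 1, GFP 2 or Ofd1 2 (adjusted p = 0.0570, 0.173 and 0.0563, in that order), and in Kif3a CRISPR without GFP 2 or Kif3a 2 (adjusted p = 0.0912 and 0.0902, in that order). The Ofd1 CRISPR call of Atp5j was lost without GFP 1 or GFP 2 (adjusted p = 0.0982 and 0.127, in that order). In Kif3a CRISPR, Atp5d was lost without GFP 1, GFP 2 or Kif3a 1 (adjusted p = 0.202, 0.0768 and 0.249, in that order), Atp5g2 without GFP 1, GFP 2 or Kif3a 1 (adjusted p = 0.110, 0.140 and 0.239, in that order), Atp5j2 without GFP 1, GFP 2 or Kif3a 2 (adjusted p = 0.0810, 0.0996 and 0.0913, in that order) and Atp5k without GFP 2, Kif3a 1 or Kif3a 2 (adjusted p = 0.333, 0.153 and 0.123, in that order).

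The 9 assembly factors and related proteins had no call, no unadjusted p under 0.05 and none by DESeq2 in either comparison with GFP control. Ndufaf1 to Ndufaf7 act in building complex I or its subunits. Their values ran from -0.16 (Ndufaf4) to 0.21 (Ndufaf3) in Ofd1 CRISPR and from -0.00 (Ndufaf2) to 0.22 (Ndufaf7) in Kif3a CRISPR. Ndufaf4 stood at 34.1 and 36.8 CPM in the GFP control libraries, 30.7, 31.4 and 33.1 in Ofd1 CRISPR and 39.5 and 34.3 in Kif3a CRISPR. Its Ofd1 CRISPR libraries lay lowest. Ndufaf6 and Ndufaf7 had the smallest p in Kif3a CRISPR, with 0.21 (adjusted p = 0.296) and 0.22 (adjusted p = 0.211). Atp5sl, which despite its symbol takes part in complex I assembly, was at 34.9 and 34.7 CPM in the GFP control libraries, 36.7, 41.3 and 38.5 in Ofd1 CRISPR and 34.5 and 39.3 in Kif3a CRISPR, and Atp5s, coupling factor B, at 4.81 and 3.91 CPM in the GFP control libraries, 5.12, 3.11 and 5.24 in Ofd1 CRISPR and 4.71 and 4.80 in Kif3a CRISPR, with groups that overlapped for Atp5s.

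Ofd1 CRISPR and Kif3a CRISPR were compared directly as well. No member was called, beside 0.179% of all tested genes (0.171% higher and 0.00777% lower). In edgeR 5 members had an unadjusted p under 0.05, and DESeq2 and every other alternative called 0. The median difference of the members was -0.05, beside -0.00 over all genes, with 26 of 88 above 0. Groups did not overlap for 19.3% of members, beside 23.0% of all tested genes. The 5 members with the smallest adjusted p were Ndufa4l2 at 0.86 (SE 0.311, adjusted p = 0.431), Ndufa4 at -0.19 (SE 0.0718, adjusted p = 0.448), Ndufaf4 at -0.22 (SE 0.0865, adjusted p = 0.466), Cox7b at -0.24 (SE 0.0980, adjusted p = 0.472) and Cox6c at -0.15 (SE 0.0657, adjusted p = 0.497). These misses do not show that the mutants act alike, since an SE of 0.311 for Ndufa4l2 leaves room for a sizeable difference.

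The direct difference between the mutants varied with the base composition of the transcripts. Across the 88 tested members, Spearman's rho between the Ofd1 CRISPR minus Kif3a CRISPR difference and GC content was 0.41, and across 12292 tested genes with a transcript it was 0.42. The members share libraries and are not independent replicates. Against GFP control the same rho was -0.04 over members and 0.14 over all genes in Ofd1 CRISPR, and -0.16 and -0.08 in Kif3a CRISPR. The 10 members higher in Kif3a CRISPR had a median GC content of 50.7% and a median length of 674 bases, the 6 lower had 56.3% and 806 bases, and the 72 without a call had 51.4% and 812 bases. Whether base composition has a part in these differences was not tested.

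**Figure D5:**
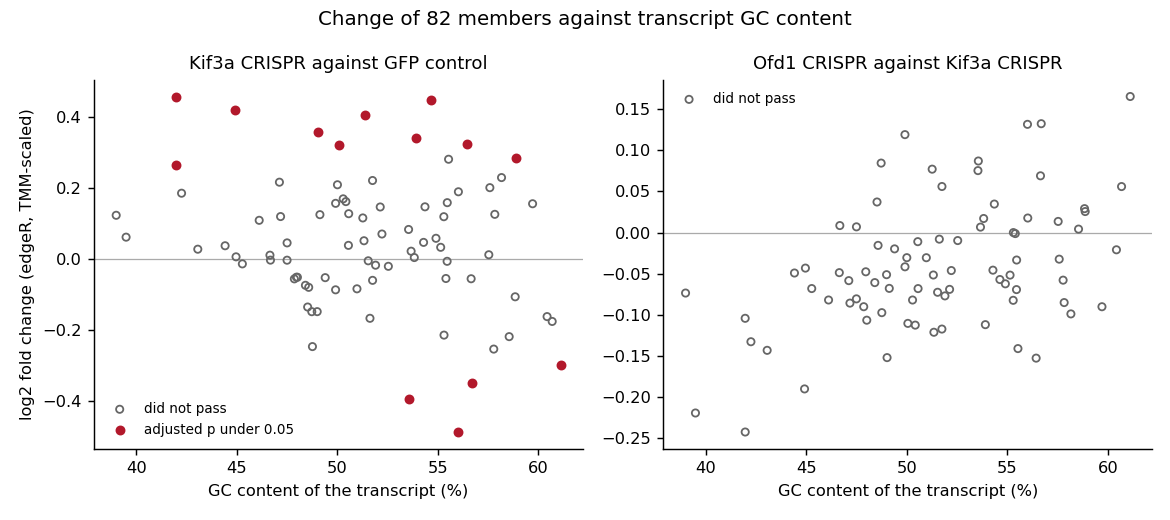
The x axis is the GC content of the transcript in percent and the y axis the log2 fold change; points are tested members other than Ndufa4l2, Cox6a2, Cox6b2, Cox7a1, Cox8b and Atp5l, which have few counts. In the right panel the difference between the mutants lies lower at low GC content (rho 0.41 over all 88 tested members), while the left panel shows calls in both directions.

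Genes that work with the chain were read from lists of known function. Of 41 tested assembly factors outside the symbols used here, 2 rose and 2 fell in Ofd1 CRISPR (9.76%, beside 14.9% of all tested genes) and 4 rose and 3 fell in Kif3a CRISPR (17.1%, beside 20.1%). DESeq2 called 1 higher and 2 lower in each. Higd1a, a small inner membrane protein that associates with complex IV and is induced in low oxygen, stood at 143 and 129 CPM in the GFP control libraries, 77.9, 88.4 and 94.96 in Ofd1 CRISPR and 63.3 and 79.7 in Kif3a CRISPR. It fell by 0.64 (SE 0.104, adjusted p = 0.00230) and 0.93 (SE 0.117, adjusted p = 0.000319). Ecsit, a complex I assembly protein, was at 57.4 and 60.5 CPM in the GFP control libraries, 39.5, 39.4 and 42.6 in Ofd1 CRISPR and 38.2 and 42.6 in Kif3a CRISPR, with changes of -0.54 (adjusted p = 0.00120) and -0.55 (adjusted p = 0.00120). All 5 mutant libraries lay below both GFP control libraries for each gene. Cox19 and Coa6, which serve copper delivery to complex IV, rose, by 0.38 (adjusted p = 0.0253) and 0.39 (adjusted p = 0.0468) in Ofd1 CRISPR and 0.51 (adjusted p = 0.00704) and 0.47 (adjusted p = 0.0233) in Kif3a CRISPR. Cox19 was lost in Ofd1 CRISPR without GFP 2 or Ofd1 2 (adjusted p = 0.276 and 0.0667, in that order) and in Kif3a CRISPR without GFP 2 or Kif3a 1 (adjusted p = 0.0851 and 0.0551, in that order). Coa6 was lost in Kif3a CRISPR without GFP 1, GFP 2 or Kif3a 1 (adjusted p = 0.140, 0.117 and 0.117, in that order) and with DESeq2 (adjusted p = 0.105). In Ofd1 CRISPR it was lost without each single library in turn (adjusted p from 0.0527 to 0.237), with DESeq2 (0.176), with the replicate block (0.0552) and with only the 2 groups (0.0588).

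None of 21 nuclear subunits and electron carriers outside the symbols was called by edgeR, beside 14.9% (Ofd1 CRISPR) and 20.1% (Kif3a CRISPR) of all tested genes. In each comparison 4 had an unadjusted p under 0.05, beside 3973 and 4371 of all 12875 tested genes. DESeq2 called 1 lower in Ofd1 CRISPR and 0 in Kif3a CRISPR. Cyc1, the cytochrome c1 subunit of complex III, stood at 334 and 336 CPM in the GFP control libraries, 315, 327 and 319.8 in Ofd1 CRISPR and 309 and 351 in Kif3a CRISPR, and Cycs, cytochrome c, at 46.4 and 37.1 CPM in the GFP control libraries, 36.8, 42.7 and 40.9 in Ofd1 CRISPR and 39.4 and 42.8 in Kif3a CRISPR. Among 18 biogenesis and mitochondrial DNA factors, 0 were called in Ofd1 CRISPR (2 at an unadjusted p under 0.05, and 1 lower by DESeq2). The share called was 5.56% in Kif3a CRISPR, and all tested genes had 14.9% in Ofd1 CRISPR and 20.1% in Kif3a CRISPR. In Kif3a CRISPR 1 rose, the mitochondrial single-strand DNA-binding protein Ssbp1, at 79.0 and 81.3 CPM in the GFP control libraries, 82.2, 91.4 and 88.5 in Ofd1 CRISPR and 102 and 98.7 in Kif3a CRISPR, a change of 0.33 (SE 0.0767, adjusted p = 0.0119) that did not pass without GFP 1, GFP 2 or Kif3a 1 (adjusted p = 0.115, 0.0646 and 0.0994, in that order). Nrf1, which binds the NRF1 letters, was at 78.3 and 78.2 CPM in the GFP control libraries, 76.1, 78.8 and 79.8 in Ofd1 CRISPR and 75.1 and 80.3 in Kif3a CRISPR. Gabpa, the DNA-binding subunit of GABP, was at 196 and 204 CPM in the GFP control libraries, 157, 168 and 183 in Ofd1 CRISPR and 188 and 169 in Kif3a CRISPR, with -0.24 (adjusted p = 0.0574) and -0.17 (adjusted p = 0.197). Tfam, which packages and transcribes mitochondrial DNA, was at 77.7 and 79.3 CPM in the GFP control libraries, 75.4, 76.6 and 77.8 in Ofd1 CRISPR and 83.0 and 79.8 in Kif3a CRISPR.

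Fuel reaches the chain through pyruvate dehydrogenase and the tricarboxylic acid cycle. Of 27 tricarboxylic acid cycle and pyruvate entry genes, 1 rose and 4 fell in Ofd1 CRISPR (18.5%, beside 14.9% of all tested genes) and 1 rose and 6 fell in Kif3a CRISPR (25.9%, beside 20.1%), with the same counts by DESeq2. Pdk1, a kinase that switches off pyruvate dehydrogenase and a known target of HIF-1, stood at 272 and 269 CPM in the GFP control libraries, 169, 178 and 218 in Ofd1 CRISPR and 121 and 129.7 in Kif3a CRISPR. It fell by 0.52 (SE 0.0947, adjusted p = 0.00414) in Ofd1 CRISPR and 1.11 (SE 0.106, adjusted p = 6.97e-05) in Kif3a CRISPR, and both calls held in all 13 alternatives. Pdk3 fell and Pdk2 rose, with -0.32 (adjusted p = 0.0204) and 0.37 (adjusted p = 0.0229) in Ofd1 CRISPR and -0.49 (adjusted p = 0.00250) and 0.39 (adjusted p = 0.0209) in Kif3a CRISPR. Pdk3 in Ofd1 CRISPR was lost without GFP 1, GFP 2 or Ofd1 1 (adjusted p = 0.206, 0.0819 and 0.0546, in that order). Pdk2 was lost in Ofd1 CRISPR without GFP 2 (adjusted p = 0.227) and in Kif3a CRISPR without GFP 2, Kif3a 1 or Kif3a 2 (adjusted p = 0.175, 0.172 and 0.0635, in that order).

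Of 27 genes of import, outer membrane and cristae, 1 rose and 4 fell in Ofd1 CRISPR (18.5%, beside 14.9% of all tested genes), and 2 rose and 4 fell in Kif3a CRISPR (22.2%, beside 20.1%). DESeq2 called 1 higher and 5 lower in each, and these shares are near the background. Hspa9, the matrix chaperone that draws in imported proteins, was at 705 and 719 CPM in the GFP control libraries, 461, 538 and 538 in Ofd1 CRISPR and 504 and 510.4 in Kif3a CRISPR and changed by -0.48 (adjusted p = 0.00223) and -0.49 (adjusted p = 0.00215). Lonp1, a matrix protease, was at 187 and 202 CPM in the GFP control libraries, 149.8, 155 and 148 in Ofd1 CRISPR and 129.6 and 122 in Kif3a CRISPR and changed by -0.37 (adjusted p = 0.00396) and -0.63 (adjusted p = 0.000198). Immt, the core protein of cristae junctions, rose by 0.21 (adjusted p = 0.0457) and 0.27 (adjusted p = 0.0180), and Tomm22, an import receptor, by 0.21 (adjusted p = 0.0469) in Kif3a CRISPR. Lonp1 was lost in Ofd1 CRISPR without GFP 2 (adjusted p = 0.0776). The Immt and Tomm22 calls were lost in several alternatives, in Ofd1 CRISPR for Immt among others without GFP 1, GFP 2, Ofd1 2, Ofd1 3, Kif3a 1 or Kif3a 2 (adjusted p = 0.218, 0.286, 0.107, 0.0529, 0.0582 and 0.0581, in that order) and in Kif3a CRISPR without GFP 1, GFP 2, Kif3a 1 or Kif3a 2 (adjusted p = 0.112, 0.138, 0.0707 and 0.0827, in that order), and for Tomm22 without GFP 1, GFP 2, Ofd1 2, Kif3a 1 or Kif3a 2 (adjusted p = 0.204, 0.251, 0.0675, 0.134 and 0.134, in that order). Tomm22 was also lost with RLE size factors (adjusted p = 0.0520), without the filter (0.0751) and with DESeq2 (0.0513), and Immt in Ofd1 CRISPR with RLE size factors (0.0508), without the filter (0.0534), with the replicate block (0.0508) and with only the 2 groups (0.0532).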

How the data were processed

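The authors deposited raw counts of reads per gene symbol and library, from stranded poly-A libraries read as single-end 75 bases, per the labels' protocols. STAR, DESeq2 and mm9 are listed, without versions or roles, per the submitters' processing notes. The counting program, its annotation and its treatment of shared reads: not given in the sources used here. The 7 libraries were grouped by title. One edgeR 4.0.16 quasi-likelihood model (R 4.3.3, TMM factors, filterByExpr, a mean per group, 4 residual degrees of freedom) was fitted to all 12875 genes that passed the filter, and each of 3 contrasts was adjusted by Benjamini-Hochberg over all of them. The common biological coefficient of variation was 7.43%. Every adjusted p is from this model unless DESeq2 1.42.0 is named. SE values come from the F statistic. The script was tested on simulated data.

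CPM per kilobase and GC content used 1 GENCODE M21 transcript per gene (the best APPRIS rank, lower median length). Promoters come from RefSeq. No coordinates of GRCm38.p6 were joined to the counts. The members, lists and tests were chosen with earlier results of these data known. Named members were, per complex and comparison with GFP control, up to 2 called members with the largest rise and 2 with the largest fall (or, with fewer than 2 called, the 2 smallest p), the 5 smallest adjusted p between the mutants, all isoform sets, the Sdh genes and the highest level per complex. From each list of other genes, up to 2 called genes each way were named. Any other gene was picked with its values known. One member of complex I is in the counts and medians but is not reported here by itself. The labels call the replicates biological; separate infections are not stated, so p-values measure the spread between these libraries. Replicate libraries differed by more than sampling noise (chi-square per degree of freedom 4.00 to 13.9).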

Additional observations from a re-analysis of the deposited data

Results flagged for a closer look

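Pdk1, the pyruvate dehydrogenase kinase, differed between the mutants by the test of the difference itself, with Ofd1 CRISPR higher than Kif3a CRISPR by 0.59 (SE 0.0982, adjusted p = 0.0395) on the log2 scale in edgeR's quasi-likelihood test. It stood at 272 and 269 CPM in the GFP control libraries, 169, 178 and 218 in Ofd1 CRISPR and 121 and 129.7 in Kif3a CRISPR, and the groups did not overlap. The call was lost without GFP 1, GFP 2, Ofd1 2, Kif3a 1 or Kif3a 2 (adjusted p = 0.0691, 0.0622, 0.0775, 0.995 and 0.211, in that order) and with only the 2 groups compared (adjusted p = 0.0704), and the log2 difference ranged from 0.47 to 0.66 over the 13 alternatives. None of the 88 respiratory chain genes tested differed between the mutants in this test.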

How the results depend on the processing

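The model was refitted with RLE size factors, with library totals alone, with no filter on low counts, with DESeq2, with the replicate block, with only the 2 groups compared and without each of the 7 libraries in turn. Ndufa4 and Ndufa4l2 were also counted with complex I, an alternative chosen after seeing the data. No direction of a called gene reversed, and of the values for single genes 1827 stayed on their side of the threshold, 120 lost it and 28 passed it. For Ofd1 CRISPR against GFP control the members higher were 5 with library totals alone, in place of 3. Over all genes, Ofd1 CRISPR against Kif3a CRISPR gave 75 higher and 5 lower with no filter, 82 and 4 with DESeq2 and 0 lower with only the 2 groups compared, in place of 22 and 1; the cause was not tested. The replicate number entered as a block gave 6 members higher and 11 lower in Ofd1 CRISPR against GFP control, 1620 and 1876 over all genes, and 124 and 67 over all genes between the mutants. Deviations of libraries with the same number correlated at 0.199 and 0.190 (GFP control and Ofd1 CRISPR), at -0.00857 (GFP control and Kif3a CRISPR) and at 0.234 and 0.152 (Ofd1 CRISPR and Kif3a CRISPR); these are fewer than 3 pairs each, so the numbers were not taken as a pairing. Leaving out 1 library, with a lone remaining library assumed to vary like the other groups, gave 0 to 4 members higher and 1 to 7 lower in Ofd1 CRISPR (270 to 1321 and 378 to 1510 over all genes), 1 to 11 and 1 to 8 in Kif3a CRISPR (281 to 1478 and 405 to 1641), and over all genes 0 to 44 and 0 to 6 between the mutants. The median log2 fold changes in these fits ran, for Kif3a CRISPR, from -0.0110 to 0.0948 over all members, -0.0698 to 0.0976 in complex I, 0.0282 to 0.171 in complex III, -0.132 to 0.0217 in complex IV and 0.0655 to 0.154 in complex V. For Ofd1 CRISPR they ran from -0.0157 to 0.0366 over all members, -0.0377 to 0.0274 in complex I, -0.0659 to 0.0257 in complex IV, -0.0183 to 0.103 in complex III, 0.00385 to 0.0584 in complex V and -0.00752 to 0.163 in the assembly factors. Between the mutants they ran from -0.0993 to 0.0318 over all members, -0.122 to 0.0405 in complex I, -0.0966 to 0.0344 in complex III, -0.124 to 0.0787 in complex IV and -0.124 to -0.0155 in complex V. Depth limits Cox6a2, Cox6b2, Cox7a1, Cox8b and Atp5l most, and 2 libraries in GFP control limit every comparison with it.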
